A study of Saccharomyces cerevisiae with 5 samples.

Results

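HSP12, RTC3, FMP16, YER053C-A, HOR7, DDR2 and SIP18 are short budding yeast genes known as, or listed with, genes induced by stress. Their coding lengths run from 114 nt (YER053C-A) to 336 nt (RTC3), all under the 500 nt limit by which they were grouped. All 7 members were measured, each by 1 probe set, out of 5449 Saccharomyces cerevisiae genes matched on the array, 659 of which (12.1%) have a coding length under 500 nt. The members were chosen because their signals were higher in the PHO2 deletion arrays of these data. That difference and its relation to the wild-type spread are therefore given as a description, with no test. The same holds for the limit itself: the longest member, RTC3 at 336 nt, lies well inside it, and the nearest gene of the related stress lists outside it is GRE1 at 507 nt, whose difference was 0.44 on the log2 scale.

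The study hybridised biotin-labelled RNA to Affymetrix expression arrays. Among the 5 arrays, 3 hold the reference strain FY4, labelled wild-type, and 2 hold a strain with a deletion of PHO2, for which the labels name no parent strain beyond the comparison with FY4. All cultures grew exponentially in batch in minimal medium with glucose and were collected at one cell density, with no stress treatment in either group. The labels do not say how the deletion was made or whether replicates were separate cultures or clones, so a p-value here speaks for these arrays and their spread, possibly technical. PHO2 encodes a homeodomain transcription factor that acts with Bas1, Pho4 and Swi5. The PHO2 probe set gave log2 signals of 10.72, 10.54 and 10.38 on the wild-type arrays and 10.07 and 10.84 on the arrays labelled PHO2 deletion, a difference of -0.09 (SE 0.24, limma adjusted p = 0.825). It did not separate the groups. Where its probes lie relative to the deleted stretch is unstated, a probe outside that stretch would check nothing, and the directions given rest on the labels alone. Over the 5449 genes the array medians lay between 11.09 and 11.18 on the log2 scale, and 97.3% to 97.9% of the genes on each array were above the background bound of 6.44 (a signal of 86.9).

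Budding yeast answers heat, osmotic shock, starvation and many other stresses with a common programme, in which the zinc finger activators Msn2 and Msn4 act through stress response elements in promoters and protein kinase A keeps them out of the nucleus while glucose is plentiful. HSP12 is the usual reporter of that programme. It is kept low in fast growth on glucose and comes up as growth slows or stress sets in. Several of its small companions encode very hydrophilic proteins that protect membranes or other proteins during drying, while others are known by little more than their induction.

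**Figure D1:**
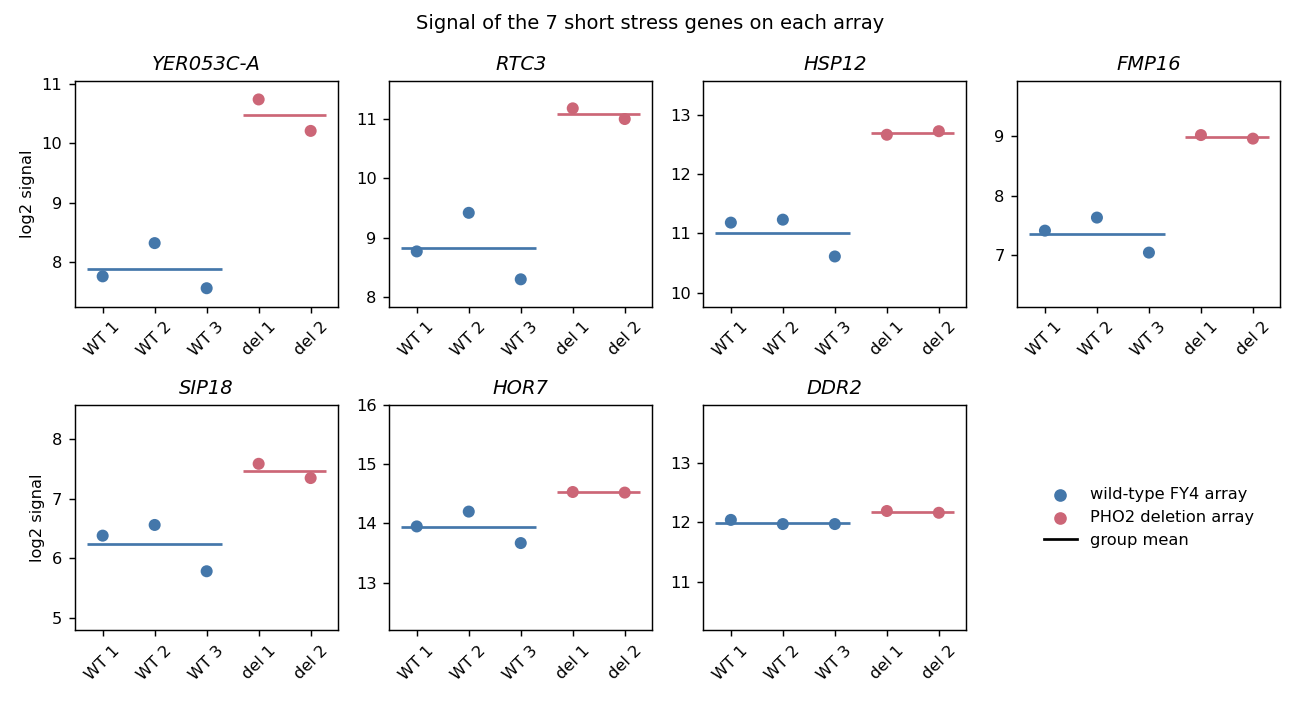
Log2 signal (vertical axes, each spanning the same number of log2 units) of the 7 short stress genes on 3 wild-type arrays (blue, WT 1 to 3) and 2 PHO2 deletion arrays (red, del 1 and 2), with horizontal lines at the group means. In every panel both deletion arrays lie above all 3 wild-type arrays, with a difference of 2.59 for YER053C-A at one end and 0.18 for DDR2 at the other; with the trend along coding length removed, DDR2 differs by -0.31.

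HSP12 (YFL014W, 330 nt), which encodes a small membrane-associated stress protein, had log2 signals of 11.18, 11.23 and 10.61 on the wild-type arrays and 12.66 and 12.72 on the PHO2 deletion arrays. Wild-type replicate 3 was the low array, and the deletion arrays lay together, 1.42 above the highest wild-type value. The mean went from 11.01 ± 0.35 (SD, n = 3) to 12.69 ± 0.05 (SD, n = 2), a difference of 1.69 or 3.22-fold. That is 2.68 times the wild-type range of 0.63.

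SIP18 (YMR175W, 240 nt) encodes a phospholipid-binding hydrophilic protein of osmotic and drying stress. Its log2 signals were 6.38, 6.56 and 5.78 on the wild-type arrays and 7.59 and 7.35 on the PHO2 deletion arrays. Only 1 of the 3 wild-type arrays, replicate 2, lay above the background bound, and both deletion arrays did. The measured difference was 1.23, from 6.24 ± 0.41 (SD, n = 3) to 7.47 ± 0.17 (SD, n = 2). With each dim wild-type value raised to the bound, the deletion arrays were at least 1.98-fold higher as deposited. That limit makes no allowance for coding length: with the trend along it removed, as described below, the difference was 0.78. GRE1, the paralog of SIP18 and also a hydrophilin gene, had log2 signals of 6.79, 6.83 and 6.45 on the wild-type arrays and 7.25 and 7.01 on the deletion arrays, a difference of 0.44 (SE 0.14) that did not pass the test over all genes (limma adjusted p = 0.131).

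RTC3 (YHR087W, 336 nt) encodes a small protein that resembles part of the ribosome maturation factor Sdo1. It had log2 signals of 8.77, 9.42 and 8.30 on the wild-type arrays and 11.18 and 11.00 on the PHO2 deletion arrays. The groups were 1.58 apart at their nearest values, although the wild-type arrays spread over 1.12, the widest wild-type range among the 7 members. Its means were 8.83 ± 0.56 (SD, n = 3) and 11.09 ± 0.13 (SD, n = 2), a difference of 2.26 or 4.79-fold.

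FMP16 (YDR070C, 282 nt), whose product was found in mitochondria and has no assigned function, followed HSP12 most closely among the members. Its log2 signals were 7.41, 7.63 and 7.04 on the wild-type arrays and 9.02 and 8.96 on the PHO2 deletion arrays. The difference was 1.63 or 3.10-fold, from 7.36 ± 0.30 (SD, n = 3) to 8.99 ± 0.04 (SD, n = 2). With each gene centred on its own mean, the profiles of FMP16 and HSP12 differed by a root mean square of 0.0833 log2 units over the 5 arrays.

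YER053C-A (114 nt), an uncharacterised small gene, had the largest difference of the 7. Its log2 signals were 7.76, 8.32 and 7.56 on the wild-type arrays and 10.74 and 10.21 on the PHO2 deletion arrays. The deletion arrays were 0.53 apart, more than for any other member, but their lower value still lay 1.89 above the highest wild-type value. The means were 7.88 ± 0.39 (SD, n = 3) and 10.48 ± 0.37 (SD, n = 2), a difference of 2.59 or 6.03-fold.

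HOR7 (YMR251W-A, 180 nt) and DDR2 (YOL052C-A, 186 nt) are a paralog pair of very small stress-responsive genes, HOR7 named for its response to hyperosmolarity and DDR2 for its response to DNA damage. HOR7 had log2 signals of 13.95, 14.20 and 13.67 on the wild-type arrays and 14.53 and 14.52 on the PHO2 deletion arrays, a difference of 0.59 or 1.5-fold. This was 1.10 times its wild-type range of 0.54, the smallest such ratio of the 7. Its deletion mean lay 0.67 below the highest log2 signal of any gene on the arrays, 15.20, and any compression of its signal there was not tested. DDR2 had log2 signals of 12.04, 11.97 and 11.97 on the wild-type arrays and 12.19 and 12.16 on the deletion arrays. Its difference, 0.18 or 1.14-fold, was the smallest of the 7, with a wild-type range of 0.07 that was the smallest too. With the trend along coding length removed, as described below, it was -0.31.

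Across the members, the difference was larger than the wild-type range in 7 of 7, against 18% of all genes. Both deletion arrays lay above all 3 wild-type arrays in 7 of 7, against 27.1% of all 5449 genes and 64.9% of the 659 genes under 500 nt. These counts follow from how the members were chosen and support nothing by themselves. The sizes split the members: YER053C-A, RTC3, HSP12 and FMP16 differed by 1.63 or more, SIP18 by 1.23 as measured, and HOR7 and DDR2 by less. Against the bound, and before any correction for coding length, SIP18 was at least 1.98-fold higher. The median of the 7 was 1.63, against 0.01 for all genes. Deletion replicate 1 lay above deletion replicate 2 in 6 of the 7, HSP12 being the exception. Without any 1 array, the differences kept their sign and ran from 1.49 to 1.80 for HSP12, from 2.0 to 2.56 for RTC3, from 1.47 to 1.77 for FMP16, from 2.33 to 2.86 for YER053C-A, from 1.0 to 1.39 for SIP18, from 0.45 to 0.72 for HOR7 and from 0.17 to 0.21 for DDR2.

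The wild-type arrays kept one order over most of these genes. Replicate 3 was the lowest wild-type array and replicate 2 the highest for 6 of the 7 members, DDR2 being the exception. The median deviation of the members from their wild-type mean was 0.05 on replicate 1, 0.27 on replicate 2 and -0.32 on replicate 3. The other 652 genes under 500 nt had the same order of arrays, with median deviations of 0.08, 0.19 and -0.22, and replicate 3 was the lowest wild-type array for 72.4% of them. Among the 4790 genes of 500 nt and more it was the lowest for 32%, and the median deviations were -0.01, 0.01 and 0.01. By length class the median deviation on replicate 3 was -0.35 from 200 to 300 nt, -0.27 from 300 to 400 nt and -0.21 from 400 to 500 nt, but -0.04 below 200 nt, the class of YER053C-A, HOR7 and DDR2. HSP12, RTC3, FMP16 and SIP18 therefore deviated the same way as their length classes. Of these, RTC3 (-0.53), HSP12 (-0.40) and SIP18 (-0.46, with a signal below the background bound) deviated further than the class median, and FMP16 (-0.32) about as far. YER053C-A (-0.32) and HOR7 (-0.27) also deviated further than their class, and DDR2 hardly deviated (-0.02).

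Coding length moved with the difference between the groups as well. The median difference was 0.39 over the 659 genes under 500 nt and -0.01 over longer genes. By length class it was 0.23 below 200 nt (110 genes), 0.66 from 200 to 300 nt (125 genes), 0.45 from 300 to 400 nt (195 genes), 0.35 from 400 to 500 nt (229 genes), 0.15 from 500 to 750 nt (677 genes) and between -0.05 and 0.02 in the longer classes. HSP12 and RTC3, in the class with a median of 0.45, and FMP16 and SIP18, in that with 0.66, exceeded the middle of their classes. So did YER053C-A and HOR7 in the shortest class, HOR7 by less (0.59 against 0.23). DDR2, at 0.18, lay just below the median of that class, which was 0.33 with genes below the background bound left out. Larger differences were found in 455 of the 659 genes under 500 nt. For HOR7 that number was 209, and for FMP16, HSP12, RTC3 and YER053C-A it was 7, 5, 2 and 1. No such number is given for SIP18, whose wild-type mean lay below the background bound.

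**Figure D2:**
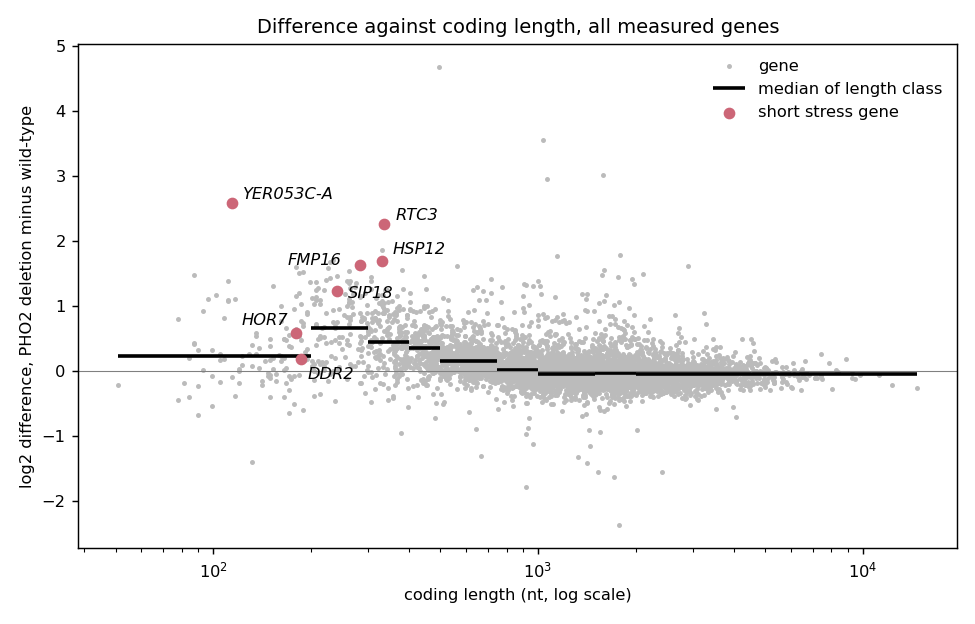
Log2 difference between the PHO2 deletion and wild-type means (vertical axis) against coding length in nt (horizontal axis, log scale) for 5449 genes in grey, with black bars at the median of each length class and the 7 short stress genes in red. Class medians fall from 0.66 between 200 and 300 nt to -0.05 for genes of 2000 nt and more. YER053C-A, RTC3, HSP12, FMP16, SIP18 and, by less, HOR7 lie above the medians of their classes, while DDR2 (0.18) lies just below its own (0.23). With the length trend removed HOR7 differs by 0.09 and DDR2 by -0.31.

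To see what is left without this trend, a smooth curve (loess) along log2 coding length was taken from each array. The differences were then 2.04 for YER053C-A, 1.87 for RTC3, 1.29 for HSP12, 1.21 for FMP16, 0.78 for SIP18, 0.09 for HOR7 and -0.31 for DDR2. Both deletion arrays stayed above all wild-type arrays for 5 of the 7, all but the HOR7 and DDR2 pair, where 25.8% of all genes did so. The same step narrowed the wild-type range of HSP12 from 0.63 to 0.26, of FMP16 from 0.59 to 0.18, of SIP18 from 0.78 to 0.35, of HOR7 from 0.54 to 0.23, of RTC3 from 1.12 to 0.71 and of YER053C-A from 0.76 to 0.60. It widened that of DDR2 from 0.07 to 0.45. Corrected differences were smaller, but against the wild-type range they grew from 2.77 to 6.85 times for FMP16, from 2.68 to 4.90 for HSP12, from 2.02 to 2.61 for RTC3 and from 1.58 to 2.20 for SIP18. For YER053C-A the ratio was 3.42 before and 3.40 after, and for HOR7 it went from 1.10 to 0.372. The curve took 0.50 from DDR2 and HOR7 and 0.55 from YER053C-A, more than the 0.23 median of the class below 200 nt, in which 27 of the 110 genes had means below the background bound. Fitted on genes above the bound only, a choice made after seeing the data, the curve left 1.85 for YER053C-A, 1.83 for RTC3, 1.25 for HSP12, 1.14 for FMP16, 0.69 for SIP18, -0.03 for HOR7 and -0.42 for DDR2.

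**Figure D3:**
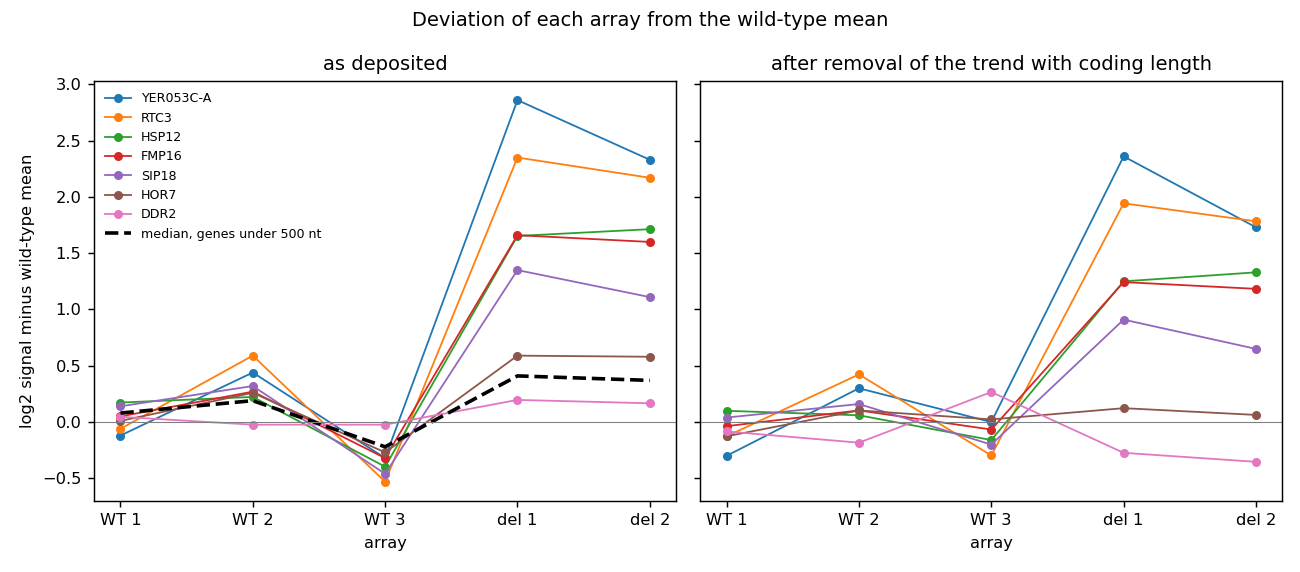
Log2 signal of each array minus the gene's wild-type mean (vertical axis) for the 7 short stress genes on 3 wild-type and 2 PHO2 deletion arrays (horizontal axis), as deposited on the left and after removal of the trend with coding length on the right. The dashed line is the median of the 659 genes under 500 nt, which dips to -0.22 on wild-type replicate 3 and stands at 0.41 and 0.37 on the deletion arrays. On the right 5 genes remain above all wild-type arrays, and HOR7 (0.09) and DDR2 (-0.31) do not.

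The short genes of a-cell identity were also higher on the deletion arrays and lower on wild-type replicate 3, while those of alpha-cell identity were not alike in this. Of the 6 markers of a cells measured, the 3 short ones, which encode the a-factor pheromone (MFA1, MFA2) and an agglutinin subunit (AGA2) and run from 111 to 264 nt, differed by 1.11 to 1.38. The 3 long ones (STE2, STE6 and BAR1) differed by 0.14 to 0.20. Length did not separate every a-cell gene in this way. ASG7, an a-specific gene of 630 nt outside this list, differed by 1.24 (SE 0.14, limma adjusted p = 0.0192). It was picked by its likeness to the members, as described below. MFA1 had log2 signals of 13.19, 12.90 and 12.22 on the wild-type arrays and 13.93 and 14.37 on the PHO2 deletion arrays. None of the 6 passed the test over all genes (limma, 0 risen and 0 fallen, 4 with an unadjusted p below 0.05). Over all genes 3.17% rose, 1.87% fell and 29.4% had an unadjusted p below 0.05 by limma, shares that also stand beside the marker counts below. The summed signal of the 6 was 15.60 to 15.89 on the log2 scale in wild-type and 16.30 to 16.49 in the deletion arrays, with all 6 above the background bound. Of the alpha-cell markers 1 of 4 rose (STE3, 0.93, SE 0.14, limma adjusted p = 0.0312), and MF(ALPHA)1 lay below the bound on all 3 wild-type arrays. On the deletion arrays MF(ALPHA)1 had log2 signals of 6.91 and 6.60, above the bound. Its measured difference of 0.79 did not pass the test (limma adjusted p = 0.0776). The short alpha-cell gene MF(ALPHA)2 (363 nt) had log2 signals of 8.40, 8.11 and 8.33 on the wild-type arrays and 8.0 and 8.14 on the deletion arrays, a difference of -0.21 that did not pass the test, and in MF(ALPHA)1 (498 nt) wild-type replicate 3 was the highest wild-type array. Summed, these 4 gave 10.65 to 10.84 in wild-type and 10.85 to 11.01 in the deletion arrays. Of 7 sporulation markers 1 rose (NDT80, 0.72, SE 0.13, limma adjusted p = 0.0472), and their sum was 11.67 to 11.74 and 11.65 to 11.76. STE3 missed the threshold without wild-type replicates 1, 2 or 3 or deletion replicate 1 (limma adjusted p from 0.0562 to 0.124), and NDT80 without each array other than wild-type replicate 3 (0.0593 to 0.24). What these markers contribute to the values of the 7 genes was not tested.

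Other small stress genes were mostly higher without passing the test. A list of 20 held small or membrane-linked stress genes, 13 of them under 500 nt. All 20 had positive differences with a median of 0.67, and 2 rose and 0 fell in the PHO2 deletion arrays (limma adjusted p below 0.05), where 3.17% of all genes rose and 1.87% fell. Among the genes under 500 nt 3.64% rose, a share close to that of all genes although their median was higher. GPG1, a subunit-like partner of the G protein Gpa2, rose by 1.56 (SE 0.20, adjusted p = 0.0239 by limma), from 7.73, 8.22 and 7.64 to 9.55 and 9.29. SPI1, a cell wall protein gene induced by weak acids and slow growth, rose by 1.0 (SE 0.14, adjusted p = 0.0288 by limma), from 9.46, 9.65 and 9.19 to 10.42 and 10.46. Both are short, at 381 and 447 nt, and both passed with the length trend removed (1.20 and 0.71, limma adjusted p of 0.0104 and 0.0068). None of the 7 listed genes of 500 nt and more rose, and their median was 0.46. The number of risen genes was 0 without wild-type replicate 1 or either deletion array, 7 without wild-type replicate 2 and 4 without wild-type replicate 3. With the length trend removed it was 4, with PAI3 (0.61) and FMP33 (0.42) added, and the list median was 0.41.

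Longer stress genes were higher as well. The general stress list holds 42 genes, 40 of them of 500 nt and more, and 11 rose and 0 fell, all 11 among the longer genes (limma). That is 26.2% risen, where 3.17% of all genes rose. This list, like the others here, was chosen with earlier results of these data known, so its share is a description and supports nothing by itself. The list median was 0.38, and 40 differences were positive. YGP1, a secreted cell wall glycoprotein gene, rose by 2.95 (SE 0.12, limma adjusted p = 8.6e-04). XBP1, a repressor gene induced by stress and starvation, rose by 1.41 (SE 0.14, limma adjusted p = 0.0152), from log2 signals of 6.92, 7.15 and 6.93 to 8.61 and 8.20. GPP2, which makes glycerol in osmotic stress, rose by 0.71 (SE 0.06), and MSC1 (0.50), TFS1 (0.69) and DCS2 (0.83) rose as well (limma adjusted p from 0.0105 to 0.0309). The disaggregase gene HSP104 differed by 0.18, the stress glycoprotein gene DDR48 by 0.02 and the trehalose synthase gene TPS1 by 0.21, none past the test. Other uncalled genes of the list differed by more. Among them were HSP42 (1.14, limma adjusted p = 0.0754) and TSL1 (0.72, limma adjusted p = 0.0897). With the length trend removed 14 rose and the median was 0.42. Left-out arrays changed the count to 1 (wild-type replicate 1 or deletion replicate 1), 2 (deletion replicate 2) and 6 (wild-type replicate 3). Of the 15 genes called in these lists and among the regulators, YGP1 alone passed without any 1 array, and the others missed the threshold at least once, with limma adjusted p from 0.0535 to 0.253.

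**Figure D4:**
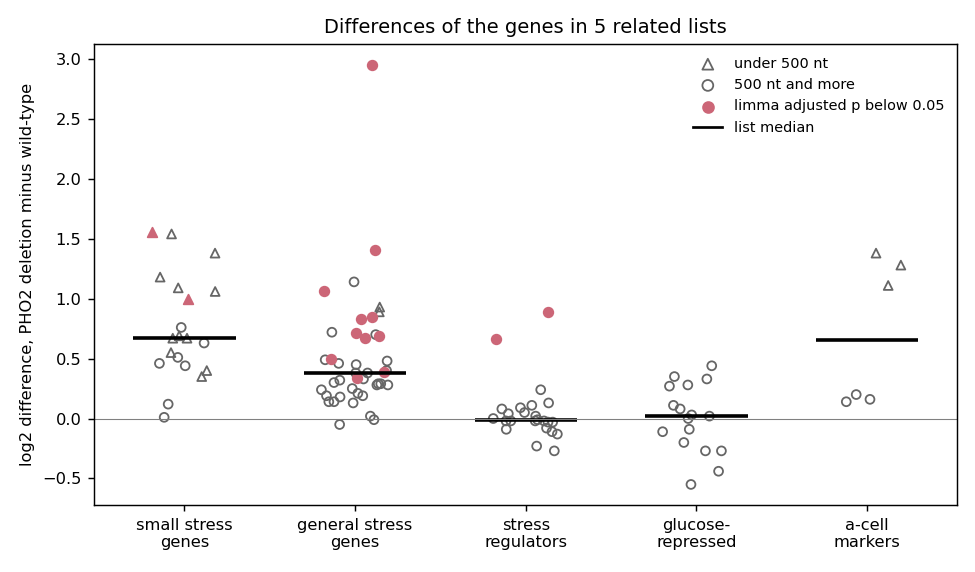
Log2 difference between PHO2 deletion and wild-type means (vertical axis) for the genes of 5 lists (horizontal axis), as triangles under 500 nt and circles at 500 nt and more, filled red where limma's adjusted p was below 0.05, with black bars at list medians. Medians are 0.67 for small stress genes, 0.38 for general stress genes, -0.01 for regulators, 0.02 for glucose-repressed genes and 0.66 for a-cell markers, whose 3 triangles lie above 1 and 3 circles near 0.

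Transcripts of regulators of the stress programme had a median difference of -0.01. Of 24 measured, 2 rose (8.33%) and 0 fell (limma), where 3.17% of all genes rose and 1.87% fell. NRG1 (0.89, SE 0.16, adjusted p = 0.0455 by limma) and NRG2 (0.66, SE 0.11, adjusted p = 0.0433 by limma), a pair of glucose-dependent repressors, were those that rose. The count was 0 without wild-type replicate 1, wild-type replicate 3 or either deletion array, and 1 without wild-type replicate 2. The activator genes MSN2 and MSN4 differed by 0.02 and 0.24, the heat shock factor gene HSF1 by 0.13, and the osmotic kinase gene HOG1 by -0.08, none past the test. Of 17 glucose-repressed genes, which come up when glucose runs out, 0 rose and 0 fell by limma, with a median of 0.02. Of the 17, 7 had an unadjusted p below 0.05 by limma, in both directions, where 29.4% of all genes had one. ADR1 narrowly missed the threshold (-0.55, limma adjusted p = 0.0504). The number fallen was 2 with array weights, 3 with the arrays quantile normalized again and 1 with the length trend removed. In each of these settings 0 rose. The summed signal of the 17 was 13.70 to 13.88 on the log2 scale in wild-type and 13.68 to 13.73 in the deletion arrays.

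The genes next to the 7 members on their chromosomes were examined in the same fit. Of the 12 neighbours measured, 1 rose and 0 fell, where 3.17% of all genes rose and 1.87% fell. The one that rose was PIC2, a mitochondrial carrier gene of 903 nt beside YER053C-A, by 0.90 (SE 0.10, limma adjusted p = 0.0183), from log2 signals of 10.62, 10.78 and 10.46 to 11.55 and 11.49. With the length trend removed it differed by 0.89, and leaving out wild-type replicate 1 or either deletion array ended its call (limma adjusted p from 0.0896 to 0.161). GIP2, on the other side of YER053C-A, differed by 0.16. PAI3, a short proteinase inhibitor gene beside SIP18, differed by 1.09 (SE 0.23, limma adjusted p = 0.0655). The remaining neighbours, among them IES1 beside HSP12 (0.14), RPF1 beside RTC3 (-0.07), DOA4 and PAA1 beside FMP16 (-0.01 and 0.14), GTO3 beside HOR7 (0.23) and SPE2 and AIM39 beside DDR2 (-0.22 and 0.01), lay between -0.22 and 0.24 and did not pass. YHR086W-A beside RTC3 and YMR175W-A beside SIP18 were below the background bound on all 5 arrays.

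Genes whose profile lay nearest to that of HSP12 were found by the root mean square distance between profiles centred on each gene's mean, over the 5 arrays. Outside the members, the nearest were the very short uncharacterised gene YGR174W-A (0.161), HSP31 (0.182), PBI2 (0.191), PHO92 (0.194) and SEO1 (0.204). HSP31, a chaperone and methylglyoxalase gene of 714 nt, had log2 signals of 10.69, 10.86 and 10.49 on the wild-type arrays and 12.14 and 12.07 on the deletion arrays. PBI2, a short proteinase B inhibitor gene, had 11.67, 11.90 and 10.81 against 12.85 and 12.94. Nearest to the mean profile of the 7 members were HSP31 (0.0903), PHO92 (0.105), GPG1 (0.111), CDA1 (0.127) and ASG7 (0.143). PHO92 lay below the background bound on all wild-type arrays, and CDA1 and ASG7 are 906 and 630 nt long. These genes were selected by their likeness, so their differences are no further evidence.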

How the data were processed

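The deposited values are probe set intensities on a linear scale, 1 per probe set and array, from 9.49 to 37719. The submitters' processing notes name R 2.8.0, affy and RMA, and that RMA values were turned back from the log2 scale is inferred from their range. The notes do not say which arrays were normalized together, and 0 columns were left unused. Quantile normalization would hide a change common to most transcripts. Of 10928 probe sets, 5498 were matched through gene number or locus tag to the gene table of assembly R64, which gave names, coding length and neighbours but no coordinates, since no build is named for the array values. For 47 genes with several probe sets the one with the highest mean was kept. The 1747 annotated probe sets left unmatched set the background bound, at their 95th percentile. They include any probe set annotated to several genes, for which no match was tried and which may detect yeast transcripts.

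R 4.3.3 and limma 3.58.1 were used to compare log2 of the deposited intensity (linear model with empirical Bayes, PHO2 deletion minus wild-type, two-sided, 3 residual and 2.23 prior degrees of freedom), with Benjamini-Hochberg adjustment over 5449 genes and a threshold of 0.05. Of these, 173 rose and 102 fell. No dim gene was left out. On simulated data with 5449 genes, limma called 93.0% of genes shifted by 1 log2 unit and 97.0% of those shifted by 2. The simulated noise was independent between genes, with spreads shuffled over all of them. It therefore lacks the differences between arrays that short genes share. The median wild-type range was 0.51 under 500 nt and 0.15 for longer genes, so these shares do not give the power for short genes. The groups and replicate numbers come from the sample titles. The members and lists were chosen with earlier results of these data known. Genes named from a list were up to 6 called in each direction with the smallest p. Some uncalled ones were chosen after their values were seen. These were HSP104, DDR48, TPS1, HSP42, TSL1, MSN2, MSN4, HSF1, HOG1, ADR1, PAI3, FMP33, MF(ALPHA)1, MF(ALPHA)2 and the a-cell genes. Counts of a list cover its measured genes only, and promoter and protein sequences were not analysed here. Alternatives covered normalization, offset, dim genes, probe sets, coding length, trend, array weights, a replicate block and leaving out each array. The number of arrays limits the precision.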

Additional observations from a re-analysis of the deposited data

How the results depend on the processing

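Of 105 differences recomputed for the 7 genes, 91 moved by less than the wild-type SD, 11 moved by more and 3 changed sign. The eBayes trend, the choice of probe set (1 per member) and leaving out dim genes could not move a difference. For every member the replicate block gave the same value as leaving out wild-type replicate 3. The 91 therefore includes settings that were bound to agree or that repeat another, and overstates the stability. The sign changes came with the correction for coding length: DDR2 went to -0.31, and with the curve fitted on genes above the background bound, chosen after seeing the data, DDR2 went to -0.42 and HOR7 to -0.03. The median of the 7 was 1.63 in the comparison as reported, 1.21 and 1.14 under these corrections, and 1.47 to 1.77 without any 1 array. The number of genes called, 275, was 638 with array weights, 35 with the replicate block and 19 to 257 without any 1 array. General stress genes that rose, 11, were 20 with array weights, 1 with the replicate block and 1 to 14 without any 1 array. Small stress genes that rose, 2, were 7 with array weights, 4 under both length corrections, 1 with the replicate block, 0 among genes of 500 nt and more and 0 to 7 without any 1 array. The replicate block rests on a shared number only: deviations of same-numbered arrays correlated across genes with r of -0.378 and -0.003. Leaving out a deletion array leaves a lone array, assumed to vary like wild-type. SIP18 is limited by signal near the background bound, where an offset of 50 gave 0.84.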
